A study of Homo sapiens with 28 samples.

Results

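The genes described here encode 4 secreted ligands of the TGF-beta superfamily and 3 proteins that act on them. NODAL, BMP2 and BMP4 encode ligands of those names, and INHBA encodes the subunit that forms activin A. TDGF1, also called CRIPTO, encodes a co-receptor of Nodal, and LEFTY1 and LEFTY2 encode secreted Nodal antagonists. The 7 genes were chosen by name, and their members in the data were the ChIP-seq peaks that overlapped each gene extended by 5 kb on both sides, in hg19 coordinates. Of 317841 peaks in 16 lists, 144 met that rule. The lists held 24757 to 28735 peaks for H3K4me3, 19989 to 31682 for H3K27me3, 10268 to 32521 for H3K27ac and 1878 to 6280 for H3K4me1.

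The study sorted Fucci human embryonic stem cells, a line that carries fluorescent reporters of cell cycle phase, into 4 fractions, namely early G1 and late G1, S phase, and G2/M cells. All fractions came from the same culture condition, a defined medium without serum or feeders that held heregulin b1, activin A, long-R3 IGF-1 and FGF2, so every group was exposed to the protein that INHBA encodes. Chromatin immunoprecipitation was done for 4 histone marks in each fraction, and 4C, which reads out DNA ligated to a chosen site, was done with viewpoints at GATA6 and SOX17. Each mark and fraction had 1 library, so there is no replicate error, no test was made between fractions, and every difference below is a difference between single libraries.

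Nodal and activin signal through shared receptors to SMAD2 and SMAD3, which in human embryonic stem cells help to keep the undifferentiated state. BMP2 and BMP4 signal through other receptors to SMAD1 and SMAD5 and are used to start differentiation towards mesoderm or trophoblast. NODAL, LEFTY1 and LEFTY2 are themselves known targets of the Nodal pathway, and the LEFTY proteins limit it. H3K4me3 is a mark of active or poised promoters, H3K27me3 is laid down by Polycomb complexes at repressed genes, H3K27ac is found at promoters and enhancers in use, and H3K4me1 is typical of enhancers. Promoters that carry both H3K4me3 and H3K27me3 are called bivalent.

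Promoter sequences are shown for genes that differ in which marks they carried. RefSeq promoters, 250 bases before and 50 after a start, matched 4 of the 7 genes, with 7 starts in all, in the build GRCh38.p14. Capitals mark letters searched on both strands: CAGAC or its reverse complement GTCTG, a SMAD binding core, GGCGCC, a GC-rich SMAD site, and TGTGGATT or AATCCACA, a FOXH1 site. The TDGF1 sequence held none of them and has no capitals. The NODAL promoter (chr10:70441632-70441931, minus strand), the second TDGF1 promoter (chr3:46577538-46577837, plus strand), the first BMP4 promoter (chr14:53955001-53955300, minus strand) and the INHBA promoter (chr7:41703041-41703340, minus strand) read as follows.
NODAL: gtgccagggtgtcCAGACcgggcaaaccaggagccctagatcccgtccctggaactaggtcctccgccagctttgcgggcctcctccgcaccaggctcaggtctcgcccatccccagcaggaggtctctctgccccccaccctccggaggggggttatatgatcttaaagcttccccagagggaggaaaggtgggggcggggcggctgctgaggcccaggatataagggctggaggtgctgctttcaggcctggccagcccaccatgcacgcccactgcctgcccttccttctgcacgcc
TDGF1: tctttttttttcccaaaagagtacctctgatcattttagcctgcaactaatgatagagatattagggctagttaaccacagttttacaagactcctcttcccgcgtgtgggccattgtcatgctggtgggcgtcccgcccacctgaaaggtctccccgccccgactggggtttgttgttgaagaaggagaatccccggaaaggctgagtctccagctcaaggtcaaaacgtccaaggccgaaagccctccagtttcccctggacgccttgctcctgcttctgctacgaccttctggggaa
BMP4: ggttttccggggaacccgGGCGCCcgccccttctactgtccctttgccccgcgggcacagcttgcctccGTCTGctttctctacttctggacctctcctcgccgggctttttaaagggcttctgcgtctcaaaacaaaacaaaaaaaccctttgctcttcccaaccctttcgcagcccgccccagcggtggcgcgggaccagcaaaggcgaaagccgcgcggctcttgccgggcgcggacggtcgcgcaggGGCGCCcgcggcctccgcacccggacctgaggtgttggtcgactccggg
INHBA: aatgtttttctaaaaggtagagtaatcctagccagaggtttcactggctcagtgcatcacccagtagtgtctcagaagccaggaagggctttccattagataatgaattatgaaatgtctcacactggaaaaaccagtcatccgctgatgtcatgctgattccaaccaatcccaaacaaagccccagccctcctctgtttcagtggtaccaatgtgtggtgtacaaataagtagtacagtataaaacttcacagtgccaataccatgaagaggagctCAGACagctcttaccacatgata

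The 4 printed promoters differed in CpG content, a feature that the choice of genes did not use. The BMP4 sequence held 32 CpG dinucleotides, those of NODAL and TDGF1 held 11 each and that of INHBA held 1, beside a median of 14 over 35116 RefSeq promoters. The GC content was 66.0% for NODAL and BMP4, 52.3% for TDGF1 and 43.3% for INHBA. The other 2 BMP4 starts held 23 and 30 CpGs and the other TDGF1 start held 2. CAGAC or GTCTG was found once in NODAL, once in each BMP4 promoter and once in INHBA, and 45.3% of all promoters held it. GGCGCC was found only in the first BMP4 promoter, 2 times, and 19.2% of all promoters held it. TGTGGATT or AATCCACA was found in none of the 7 sequences, and 0.817% of all promoters held it. These matches describe letters in a window, not binding.

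The 7 genes fell into different mark combinations. BMP2 and BMP4 carried H3K4me3 and H3K27me3 in every fraction, TDGF1 and LEFTY1 carried H3K4me3 and H3K27ac in every fraction, with the H3K4me3 of LEFTY1 mostly in the flank beyond its end, NODAL carried H3K27me3 alone, LEFTY2 carried H3K27ac alone and INHBA carried small peaks of 3 marks. The map of peaks along each gene shows these combinations and their positions.

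**Figure D1:**
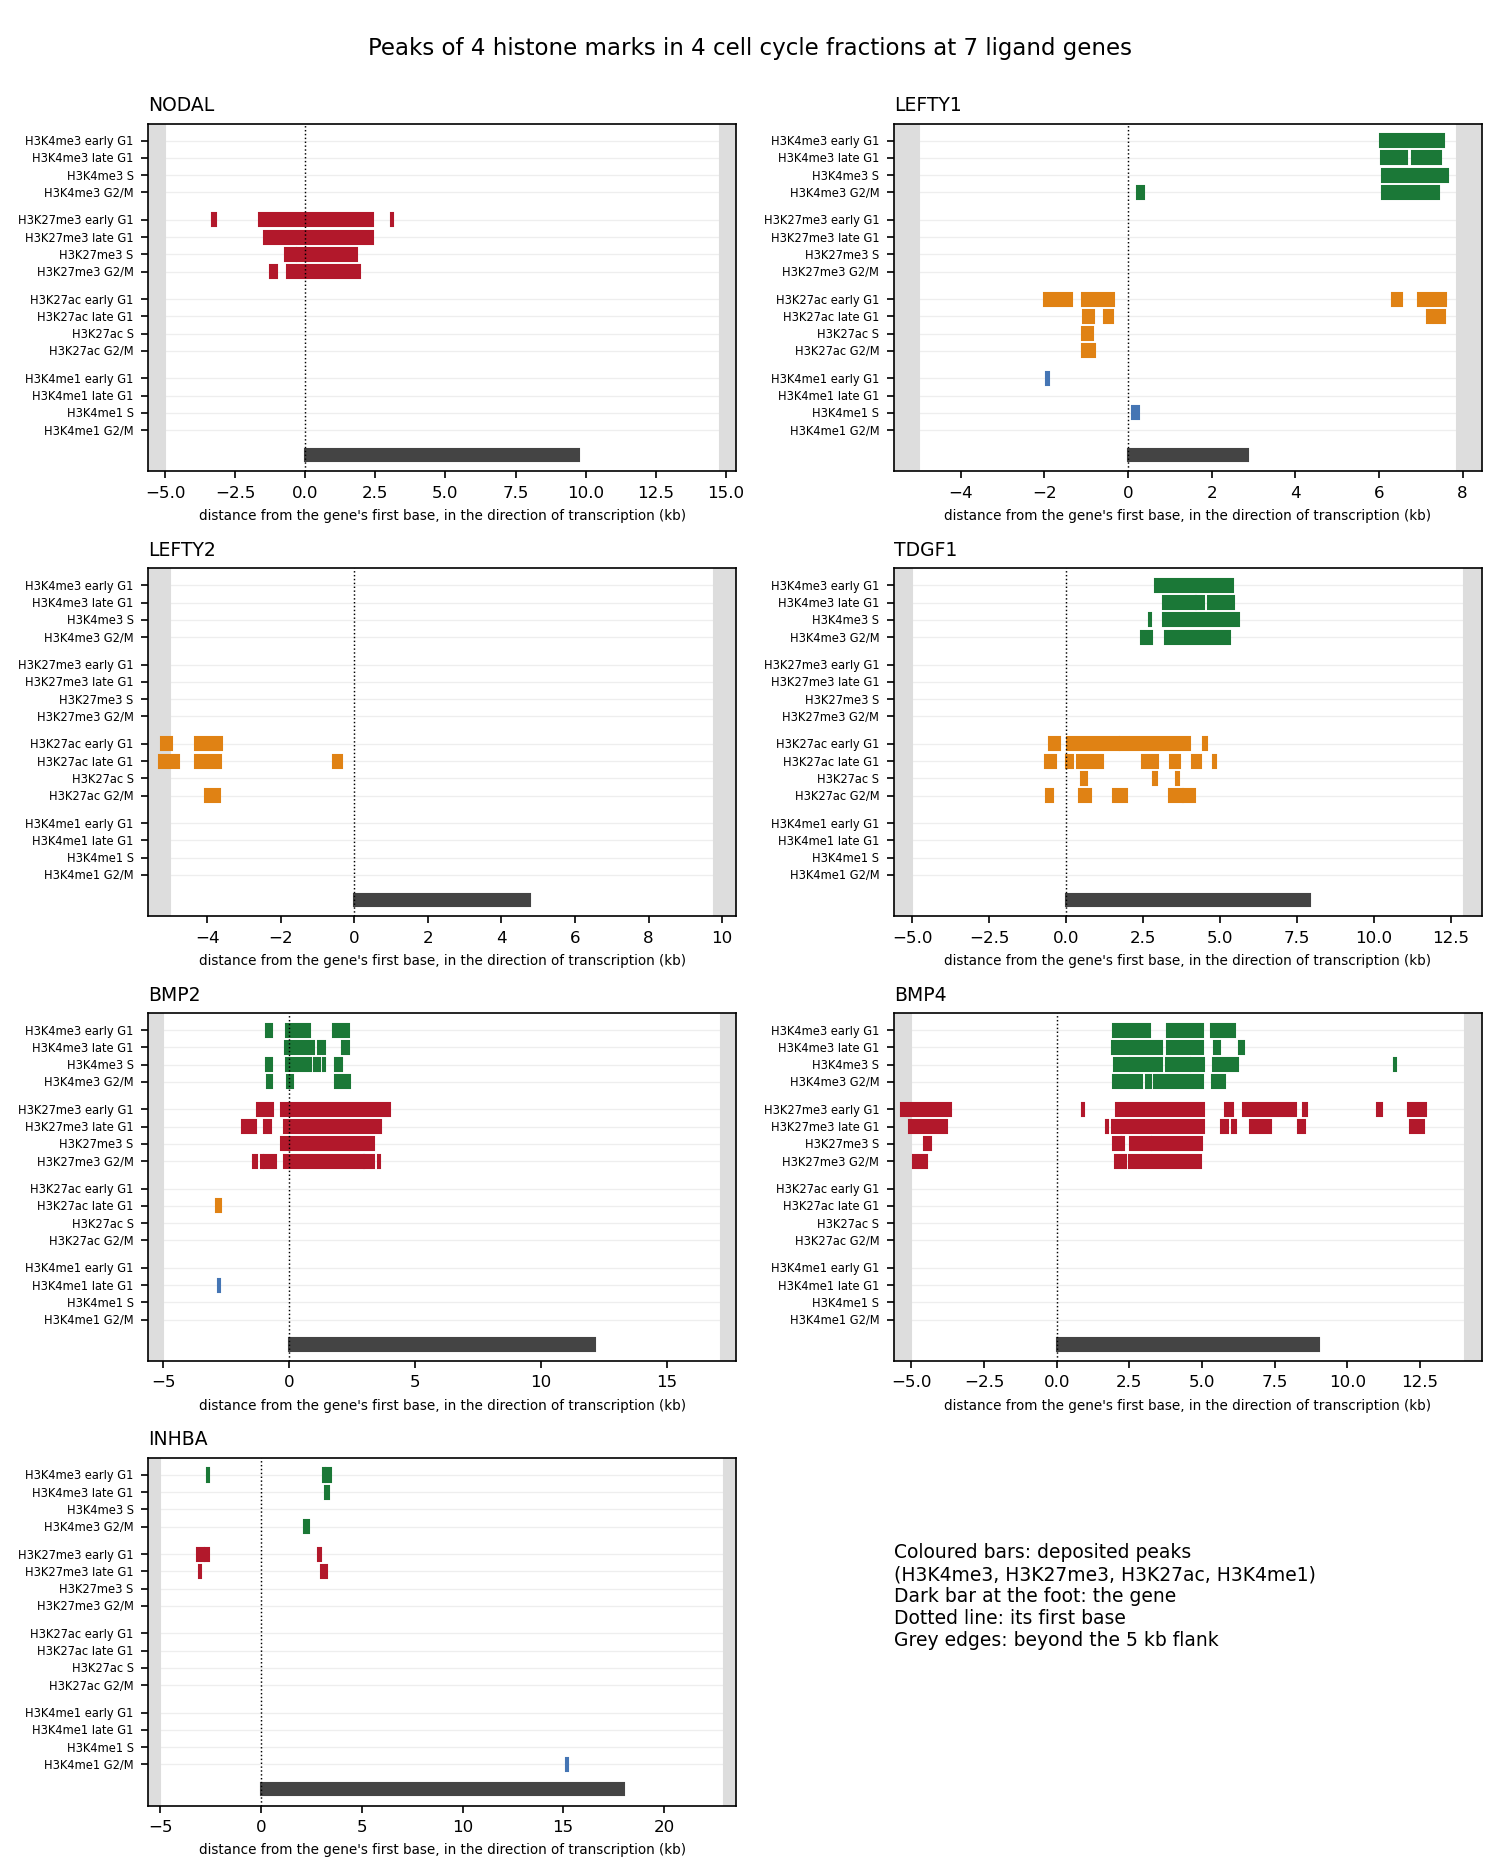
Each panel shows 1 gene, with distance from its first base in kb along the horizontal axis in the direction of transcription, and 1 row for each mark and fraction; coloured bars are deposited peaks and the dark bar is the gene. NODAL has peaks of H3K27me3 only, LEFTY2 of H3K27ac only, and at BMP2 and BMP4 peaks of H3K4me3 and H3K27me3 overlap in every fraction, though not every H3K4me3 peak does.

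Of 28 pairs of a gene and a fraction, 19 had an H3K4me3 peak, 14 an H3K27me3 peak, 12 an H3K27ac peak and 4 an H3K4me1 peak. H3K4me3 was listed at 5 of the 7 genes in at least 1 fraction, H3K27me3 and H3K27ac at 4 each and H3K4me1 at 3. Over the genome cut into 20 kb tiles, a peak in at least 1 fraction was found in 13.1% of tiles for H3K4me3, 7.33% for H3K27me3, 13.9% for H3K27ac and 7.33% for H3K4me1. The tiles include regions without genes, so these shares are a background for any window of about that size and not for promoters. Counting all 4 marks, LEFTY1 and BMP2 had a peak in 10 of the 16 lists, TDGF1 and BMP4 in 8, INHBA in 6, NODAL in 4 and LEFTY2 in 3.

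Peaks of the 4 fractions that touched were merged into regions, and each region was asked whether all 4 fractions listed it. All 4 fractions listed 6 of the genes' 15 H3K4me3 regions, beside 47.7% of all H3K4me3 regions. For H3K27me3 it was 4 of 18 regions, beside 18.0%, for H3K27ac 2 of 12, beside 10.4%, and for H3K4me1 0 of 4, beside 0.281%. Read against the whole lists, these counts do not set the genes apart. The regions listed in every fraction belonged to LEFTY1, TDGF1, BMP2 and BMP4 for H3K4me3, to NODAL, BMP2 and BMP4 for H3K27me3, and to LEFTY1 and TDGF1 for H3K27ac.

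NODAL (hg19 chr10:72191692-72201465, minus strand), the ligand that gives the pathway its name, carried one broad H3K27me3 peak over its first base in all 4 fractions. This peak was 4050 bp long in early G1, 3875 bp in late G1, 2150 bp in S phase and 2600 bp in G2/M. Peaks covered 4.25 kb of the window in early G1, 3.88 kb in late G1, 2.55 kb in S phase and 2.85 kb in G2/M. The mark thus took up more of the NODAL window in the early G1 and late G1 libraries than in those of S and G2/M.

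The deposited signal of each peak is called its height here, in the authors' unit, whose scaling is not given. The tallest NODAL peak had a height of 224 in early G1, 96.5 in late G1, 61.4 in S phase and 50.5 in G2/M. Because the lists differ in scale, each height was also given as a percentile, the share of peaks in the same list that were lower. For NODAL it was 97.5 in early G1, 92.7 in late G1, 89.2 in S phase and 88.0 in G2/M, so the order of the fractions was the same on both scales.

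Another scale, the relative height, divides a region's height by the library's median over regions listed in all 4 fractions, which adjusts for the overall scale of each list. The NODAL H3K27me3 region stood at 2.85 in early G1, 1.47 in late G1, 1.90 in S phase and 1.19 in G2/M. The log2 ratio was -0.95 for late G1 over early G1, 0.37 for S over late G1, -0.67 for G2/M over S and 1.26 for early G1 over G2/M. On this scale S was higher than late G1, whereas S was lower than late G1 by deposited height and by percentile. NODAL had its highest value in early G1 on all of these scales.

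No H3K4me3, H3K27ac or H3K4me1 peak was listed within 5 kb of NODAL in any fraction. NODAL is a gene that embryonic stem cells can express, and no expression was measured in the data used here. The gene limits used were those of the rule, 9.77 kb for NODAL, while the RefSeq gene in GRCh38 spans 16.02 kb, so the window need not hold every annotated start.

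INHBA (hg19 chr7:41724712-41742706, minus strand), which encodes the activin A subunit, had the weakest marks of the ligands by percentile. Its H3K4me3 peaks covered 0.45 kb in early G1, 0.2 kb in late G1 and 0.225 kb in G2/M, and none was listed in S. The tallest had a height of 20.2 in early G1, 19.7 in late G1 and 17.4 in G2/M. These are low values, at percentile 9.10 of the list in early G1, 21.4 in late G1 and 20.9 in G2/M.

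H3K27me3 at INHBA was listed in early G1, over 0.65 kb, and in late G1, over 0.4 kb, but not in S or G2/M. How often other genes showed this was not computed. The tallest peak had a height of 30.1 in early G1 and 31.0 in late G1, at percentiles 53.4 and 68.1 of those lists. In early G1 and late G1 the 2 marks overlapped by 100 bp, at different places. The overlap lay 2595 to 2694 bp upstream in early G1 and 3156 to 3255 bp inside the gene in late G1. The G2/M library listed one H3K4me1 peak of 125 bp, 15131 to 15255 bp from the first base within the gene. No INHBA peak of any mark covered the first base in any fraction: the nearest H3K4me3 peaks lay 2131 to 3455 bp inside the gene and 2595 to 2694 bp upstream of it.

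BMP2 (hg19 chr20:6748745-6760910, plus strand) carried broad H3K27me3 across its first base with small H3K4me3 peaks, most of them inside it. An H3K4me3 region 670 to 919 bp upstream, listed in early G1, S and G2/M, lay outside that broad peak. In S this region overlapped no H3K27me3 peak. The longest H3K27me3 peak was 4350 bp in early G1, 3850 bp in late G1, 3675 bp in S phase and 3025 bp in G2/M. Its height was 192 in early G1, 144 in late G1, 81.5 in S phase and 108 in G2/M. By percentile these heights were 96.2, 96.5, 92.9 and 95.8 from early G1 through to G2/M, near the top of each list.

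The relative height of the BMP2 H3K27me3 region was 2.44 in early G1, 2.20 in late G1, 2.52 in S phase and 2.55 in G2/M. Between successive fractions its log2 ratios ran from -0.15 to 0.20, but S over late G1, 0.20 on this scale, was -0.82 by deposited height and was also lower by percentile. The covered length of BMP2 H3K27me3 was 5 kb in early G1, 4.68 kb in late G1, 3.68 kb in S phase and 4.30 kb in G2/M. BMP2 thus varied less between the fractions than NODAL did, in height and in covered length, but with 1 library each that difference was not tested.

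BMP2 H3K4me3 peaks covered 1.78 kb in early G1, 1.63 kb in late G1, 1.73 kb in S phase and 1.05 kb in G2/M. The tallest had a height of 38.2 in early G1, 38.2 in late G1, 29.6 in S phase and 22.98 in G2/M. These heights were at percentiles 35.4, 51.3, 43.0 and 35.5 of the lists from early G1 through to G2/M, near or below the middle of each list. The region at the first base, 169 bp before to 980 bp after it, had a relative height of 0.285 in early G1, 0.583 in late G1, 0.385 in S phase and 0.304 in G2/M. Late G1 was 1.03 higher than early G1 on the log2 scale by relative height, while the deposited heights differed by only -0.0018.

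A single 200 bp H3K27ac peak was listed for BMP2, in late G1, 2695 to 2894 bp upstream, at a height of 28.4 and percentile 74.9. A 100 bp H3K4me1 peak of the late G1 fraction overlapped it. That H3K4me1 peak was at percentile 92.7 by height but at 33.0 by the deposited score, the other value the authors gave each peak. On chromosome 20 the Spearman correlation of height with score over peaks was -0.723 to -0.598 in the H3K4me1 lists, against -0.957 to -0.896 on other chromosomes. It was also weaker there for H3K27ac, at -0.918 to -0.857 against -0.986 to -0.968, and for H3K27me3, at -0.964 to -0.905 against -0.992 to -0.983. For H3K4me3 it was slightly weaker there in each fraction, at -0.987 to -0.971 against -0.992 to -0.978. By score the BMP2 H3K27ac peak was at percentile 68.1, and the tallest H3K27me3 peaks were at 96.8, 98.01, 91.6 and 96.1 from early G1 through to G2/M, close to their ranks by height.

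BMP4 (hg19 chr14:54416454-54425479, minus strand) had the longest H3K27me3 cover of the 7 genes in early G1 and late G1. Peaks covered 7.58 kb of its window in early G1, 6.30 kb in late G1, 3.08 kb in S phase and 3.28 kb in G2/M. The longest peak was 3050, 3150, 1725 and 2475 bp from early G1 through to G2/M. It began 1904 to 3279 bp inside the gene as the rule places it. The rule's gene is longer than the RefSeq gene, so its first base need not be a RefSeq start. The height of the longest peak was 125 in early G1, 122 in late G1, 74.5 in S phase and 69.7 in G2/M. By percentile this was 91.2 in early G1, 95.2 in late G1, 91.9 in S phase and 91.8 in G2/M. Those are high ranks among peaks of all lengths. Among peaks of at least 500 bp the percentiles were 79.0, 86.3, 76.1 and 74.0 in the same order.

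The smaller BMP4 peaks made up much of the longer cover in early G1 and late G1. Regions at 5654 to 6178, 6404 to 8228, 8304 to 8603 and 12079 to 12703 bp from the first base were listed in early G1 and late G1. Neither S nor G2/M listed them. The share of all H3K27me3 regions with that pattern was not computed. Only 18.0% of all H3K27me3 regions were listed in all 4 fractions, so absence from some fraction was common. The whole H3K27me3 lists held 23755, 31682, 19989 and 26480 peaks from early G1 through to G2/M, so S had the shortest. An upstream region, 5396 to 3622 bp before the first base, was listed in all 4 fractions with heights of 74.7 in early G1, 45.1 in late G1, 14.3 in S phase and 14.6 in G2/M. Its relative height was 0.949 in early G1, 0.687 in late G1, 0.441 in S phase and 0.344 in G2/M. This upstream region and the NODAL region were the 2 of 4 H3K27me3 regions that differed by at least 2-fold between early G1 and G2/M, both higher in early G1, beside 16.9% of all regions listed in all 4 fractions. The log2 ratio was 1.46 for BMP4 and 1.26 for NODAL.

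BMP4 H3K4me3 peaks covered 3.33 kb in early G1, 3.38 kb in late G1, 3.83 kb in S phase and 3.23 kb in G2/M. The tallest had a height of 58.4 in early G1, 39.4 in late G1, 44.6 in S phase and 53.4 in G2/M, at percentiles 47.8, 52.4, 55.0 and 62.0. The main region lay 1904 to 5053 bp inside the gene as the rule places it, in the same span as the main H3K27me3 region, 1904 to 5078 bp. Its relative height was 0.436 in early G1, 0.603 in late G1, 0.580 in S phase and 0.706 in G2/M. Late G1 over early G1 was 0.47 on the log2 scale by relative height and -0.57 by deposited height, and early G1 over G2/M was -0.69 and 0.13, so the direction depended on the scale. No H3K27ac or H3K4me1 peak was listed at BMP4. The rule's BMP4 spans 9.03 kb and the RefSeq gene in GRCh38 7.16 kb, with 3 starts. Distances at BMP4 are from the rule's first base, so they do not show how far the marks lay from a RefSeq start.

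H3K4me3 and H3K27me3 overlapped in 10 of 28 pairs of a gene and a fraction. BMP2 and BMP4 did so in all 4 fractions and INHBA in early G1 and late G1, at a different place in each. The overlap was 1775, 1625, 1500 and 1050 bp at BMP2 and 2675, 2975, 2625 and 2550 bp at BMP4, from early G1 through to G2/M. By region, 3 of the genes' 15 H3K4me3 regions, at BMP2 and BMP4, overlapped H3K27me3 in all 4 fractions, beside 5.58% of all 32799 H3K4me3 regions. LEFTY1 and TDGF1 had H3K4me3 without H3K27me3 in their windows, and NODAL had H3K27me3 without H3K4me3, in all 4 fractions. For LEFTY1 in early G1, late G1 and S that H3K4me3 lay only beyond the gene's end, 6021 to 7645 bp from the first base.

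TDGF1 (hg19 chr3:46616045-46623953, plus strand), the Nodal co-receptor, had the tallest H3K4me3 of the 7 genes in each fraction. Its height was 195 in early G1, 54.6 in late G1, 111 in S phase and 82.2 in G2/M. By percentile these heights were 77.1, 62.5, 79.0 and 73.3 from early G1 through to G2/M, so late G1 was lowest on both scales. The covered length was 2.55 kb in early G1, 2.15 kb in late G1, 2.53 kb in S phase and 2.48 kb in G2/M.

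The TDGF1 H3K4me3 region lay 2881 to 5605 bp inside the gene as the rule gives it, not at its first base. RefSeq lists 2 starts for this gene in GRCh38, 3253 bp apart, and the sequence printed for TDGF1 is that of the downstream one. The builds differ, so the distances are given side by side only. Its relative height was 1.46 in early G1, 0.834 in late G1, 1.44 in S phase and 1.09 in G2/M, with log2 ratios of -0.81 for late G1 over early G1 and 0.79 for S over late G1.

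H3K27ac at TDGF1 was the broadest of the 7 genes in each fraction. It covered 4.48 kb in early G1, 2.70 kb in late G1, 0.425 kb in S phase and 1.90 kb in G2/M. The tallest peak had a height of 57.1 in early G1, 45.1 in late G1, 14.3 in S phase and 33.7 in G2/M. The S library stood apart in rank as well, at percentile 42.2, against 97.0 in early G1, 96.1 in late G1 and 95.02 in G2/M.

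In S the TDGF1 acetylation consisted of 3 peaks of 100 to 200 bp, at 481 to 680, 2831 to 2955 and 3556 to 3655 bp inside the gene. The early G1 library had a peak of 2300 bp there and one of 1675 bp, which together spanned 31 to 4030 bp. The S H3K27ac list was the shortest of the 4, with 10268 peaks, against 32521 in late G1, so fewer peaks at a gene in S is also what the list as a whole shows. The region's relative height was 1.53 in early G1, 1.29 in late G1, 0.845 in S phase and 1.39 in G2/M, a difference of -0.61 on the log2 scale for S over late G1. Over all H3K27ac regions listed in all 4 fractions, the middle 90% of that log2 ratio ran from -0.58 to 0.68. The other such region of the genes, upstream of LEFTY1, lay outside that range on the opposite side, at 0.77. By deposited height the same LEFTY1 ratio was -0.27. TDGF1 has processed copies elsewhere in the genome, and how reads that fit several places were handled was not stated in the sources used here.

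LEFTY1 (hg19 chr1:226073982-226076846, minus strand), a Nodal antagonist, carried H3K27ac just upstream of its first base in all 4 fractions. The region lay 330 to 1104 bp upstream, with heights of 40.2 in early G1, 24.3 in late G1, 20.1 in S phase and 24.2 in G2/M. The percentiles were 86.8 in early G1, 57.9 in late G1, 82.9 in S phase and 81.0 in G2/M, so late G1 ranked lowest although its height was above that in S. The cover upstream of LEFTY1 was 1.45 kb in early G1, 0.5 kb in late G1, 0.275 kb in S phase and 0.325 kb in G2/M. A further 0.875 kb in early G1 and 0.375 kb in late G1 lay beyond the gene's end, on the TMEM63A side, which brings the cover of the whole window to 2.33 kb in early G1 and 0.875 kb in late G1.

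In early G1 a second upstream acetylated region of 675 bp was listed, 1330 to 2004 bp before the first base, with a 75 bp H3K4me1 peak inside it. An H3K4me1 peak of 175 bp was listed in S, 96 to 270 bp inside LEFTY1. LEFTY1 H3K4me3 covered 1.53 kb in early G1, 1.33 kb in late G1, 1.58 kb in S phase and 1.53 kb in G2/M, at percentiles of 71.0, 59.1, 62.8 and 64.4. All of it but 1 peak lay beyond the gene's end, 6021 to 7645 bp from the first base, on the side of the next gene in RefSeq order, TMEM63A. That peak, of 150 bp in G2/M, lay inside LEFTY1, 221 to 370 bp from the first base, at percentile 17.1 of its list. The H3K4me3 count for LEFTY1 thus rests on the flank in the other fractions.

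LEFTY2 (hg19 chr1:226124298-226129083, minus strand), the neighbouring antagonist, had H3K27ac and no other mark. The peaks covered 0.783 kb in early G1, 1.18 kb in late G1 and 0.425 kb in G2/M, and none was listed in S. The tallest peak, 3593 to 4317 bp upstream in early G1, had a height of 48.6 in early G1, 41.5 in late G1 and 21.1 in G2/M. Its percentile was 93.5 in early G1, 94.2 in late G1 and 70.0 in G2/M. A peak close to the start, 343 to 592 bp upstream, was listed in late G1 alone. LEFTY1 and LEFTY2 are close copies of each other, so reads from stretches that match cannot be told apart and their values are uncertain to that extent.

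Of the 9 H3K27ac regions listed in late G1 at the 7 genes, 7 were not listed in S. Over all regions listed in late G1 the share was 76.8%, so the count at these genes is near that of the whole list. The 2 regions listed in both were the LEFTY1 upstream region and the TDGF1 region in the gene. The plot of height percentiles by fraction sets the genes side by side.

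**Figure D2:**
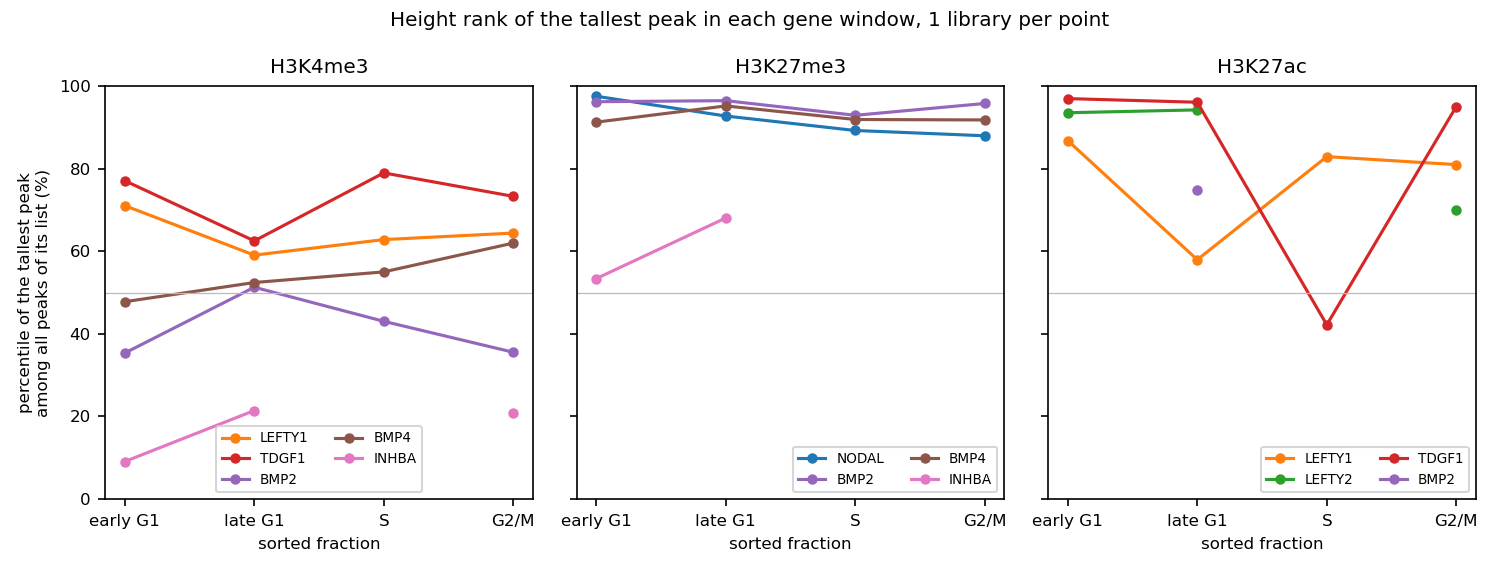
Points show, for each gene, the percentile of its tallest peak among all peaks of the same list (vertical axis, in %) in the 4 fractions (horizontal axis), 1 library per point, with no point where no peak was listed. NODAL, BMP2 and BMP4 lie between 88.0 and 97.5 for H3K27me3 in every fraction, and TDGF1 is at 42.2 for H3K27ac in S.

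The covered length summed over the 7 windows differed between fractions most for H3K27ac. It was 7.58 kb in early G1, 4.96 kb in late G1, 0.7 kb in S phase and 2.65 kb in G2/M. The whole H3K27ac lists covered 9.94, 9.44, 2.53 and 5.601 Mb in the same order, so S was lowest in both. S over late G1 was 0.141 at the genes, against 0.268 in the list, late G1 over early G1 was 0.654 against 0.950, and G2/M over S was 3.79 against 2.21. TDGF1 alone made up most of the sum in every fraction, with 4.48, 2.70, 0.425 and 1.90 kb, so these ratios rest mainly on 1 gene. The mean height of the genes' H3K27ac peaks was 36.6, 29.1, 15.2 and 25.7, against 29.5, 25.9, 16.7 and 20.3 over the whole lists.

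For H3K27me3 the 7 windows held 17.5 kb in early G1, 15.3 kb in late G1, 9.30 kb in S phase and 10.4 kb in G2/M. The whole lists covered 27.02, 32.02, 17.2 and 24.3 Mb in that order, so late G1 was highest in the list while early G1 was highest at the genes. Late G1 over early G1 was 0.873 at the genes, against 1.19 in the list, and S over late G1 was 0.610 against 0.536. Early G1 over G2/M was 1.68 at the genes, against 1.11 in the list, and BMP4 gave the largest part of that difference, 7.58 kb in early G1 against 3.28 kb in G2/M. The mean height of the genes' H3K27me3 peaks was 59.7, 46.0, 40.5 and 30.1 from early G1 through to G2/M, against 50.9, 40.8, 34.0 and 32.4 over the whole lists.

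For H3K4me3 the sum varied little. It was 9.63 kb in early G1, 8.68 kb in late G1, 9.65 kb in S phase and 8.50 kb in G2/M, and the whole lists covered 22.2, 19.2, 22.01 and 19.7 Mb. The ratios between successive fractions ran from 0.881 to 1.13 at the genes, and those of the whole lists from 0.866 to 1.14. The mean height of the genes' H3K4me3 peaks, 61.6, 31.0, 32.4 and 30.5, was below that of each list, 119.8, 62.7, 69.9 and 68.3.

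**Figure D3:**
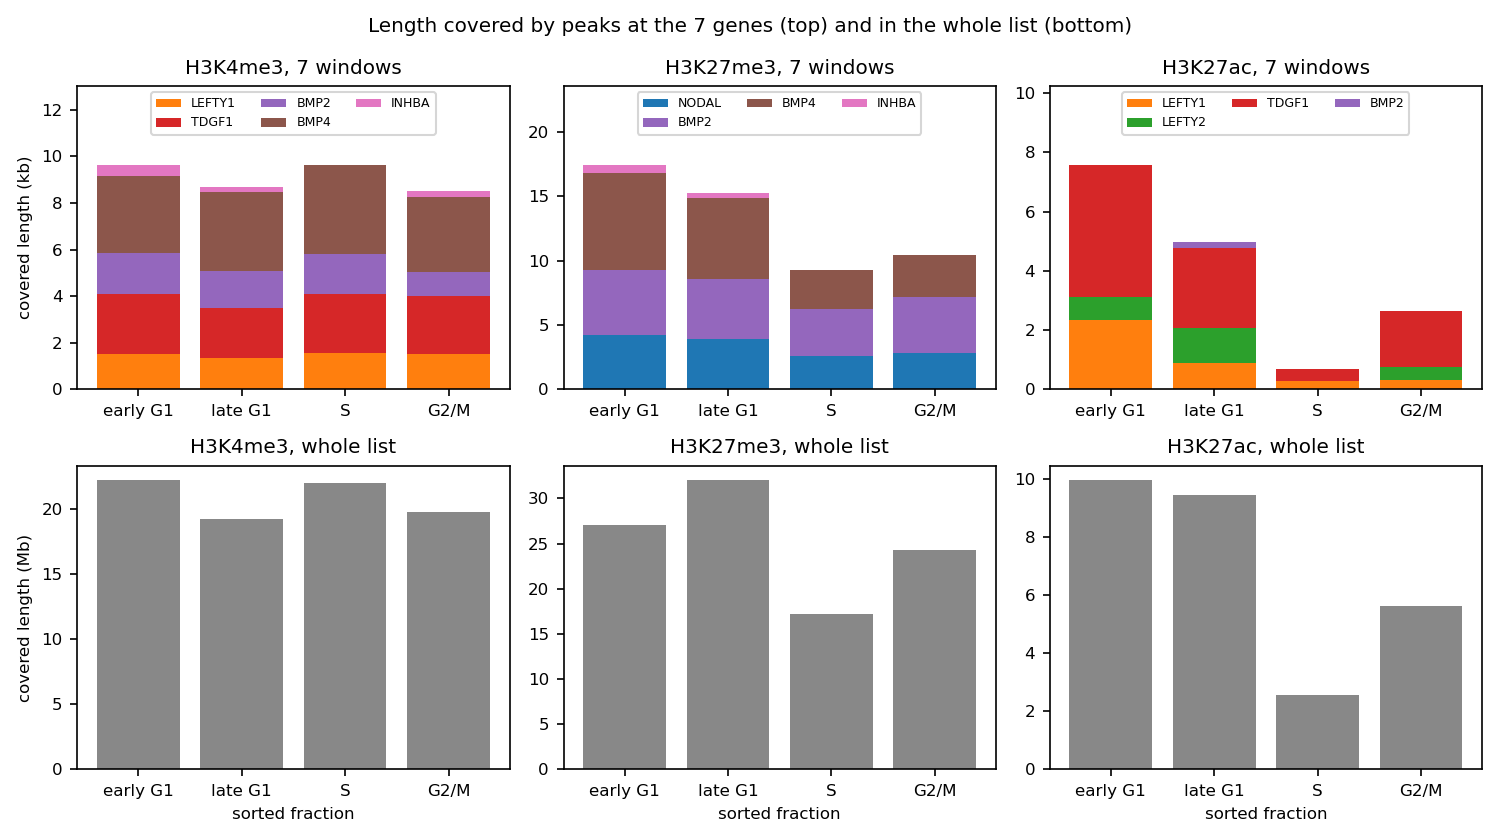
Bars give the length covered by peaks in each fraction, in kb summed over the 7 windows and coloured by gene in the top row, and in Mb over the whole list in the bottom row, with 1 library per bar. H3K27ac at the genes is 0.7 kb in S, and H3K27me3 is 17.5 kb in early G1 against 10.4 kb in G2/M.

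Relative heights could be followed at 6 H3K4me3, 4 H3K27me3 and 2 H3K27ac regions. For H3K4me3, 1 of 6 regions, that at the BMP2 first base, differed by at least 2-fold between late G1 and early G1, beside 20.9% of all regions listed in all 4 fractions. None of the 6 did so between S and late G1, beside 3.03%, between G2/M and S, beside 5.74%, or between early G1 and G2/M, beside 20.1%. For H3K27me3, 2 of 4 regions differed between early G1 and G2/M, beside 16.9%. None of the 4 differed by 2-fold between late G1 and early G1, beside 11.5%, between S and late G1, beside 3.27%, or between G2/M and S, beside 2.91%. Neither H3K27ac region, upstream of LEFTY1 or in TDGF1, differed by 2-fold between late G1 and early G1, beside 5.38%, between S and late G1, beside 1.25%, between G2/M and S, beside 0.747%, or between early G1 and G2/M, beside 5.25%. With so few regions a count of 1 or 2 is a description of those regions.

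**Figure D4:**
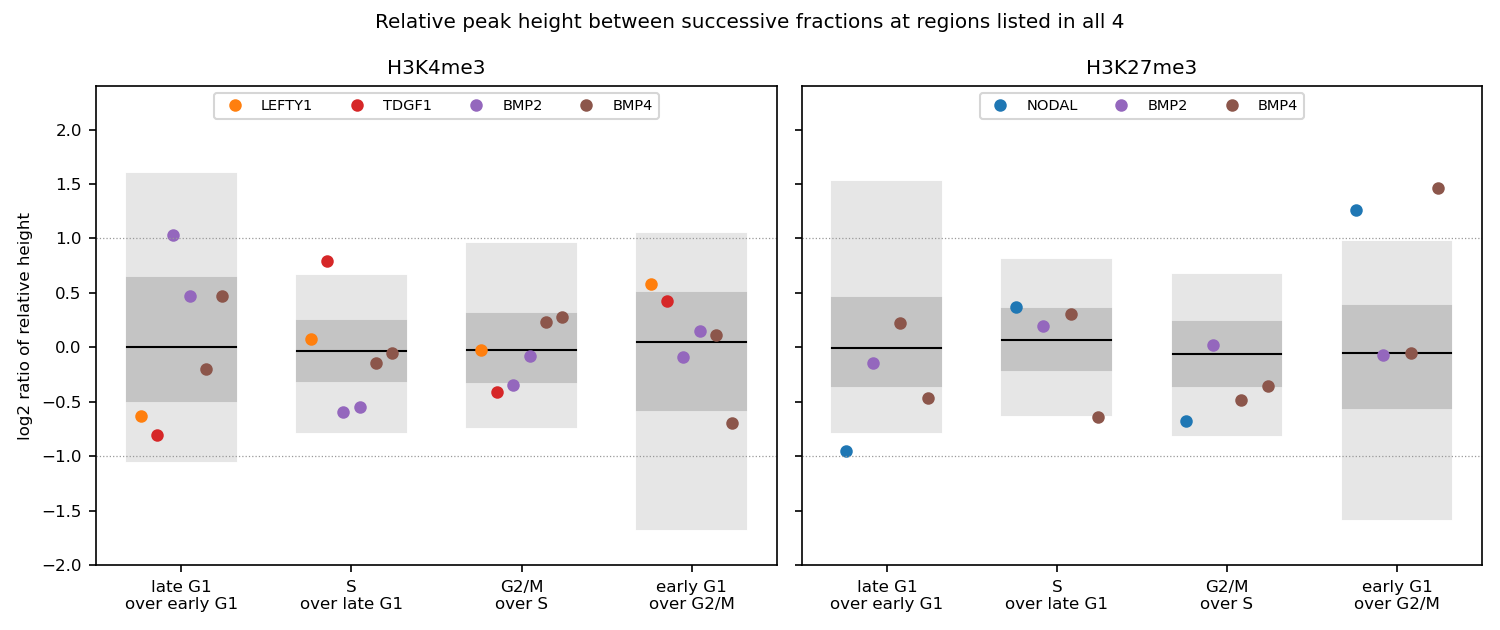
Points show the log2 ratio of relative height between successive fractions for the genes' regions listed in all 4 fractions, beside dark and light grey bands for the middle 50% and 90% of all such regions and a line for their median. The NODAL region and the BMP4 upstream region lie above the 2-fold line for H3K27me3 in early G1 over G2/M, at 1.26 and 1.46.

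The pairs of genes most alike over the 16 lists, counted as both or neither having a peak, were LEFTY1 with TDGF1 and BMP2 with BMP4, at 14 lists each. In 8 of the 14 both had a peak, for either pair. The least alike were NODAL with LEFTY1, at 2 lists, and NODAL with TDGF1, at 4. LEFTY1 and LEFTY2, the antagonist pair, were alike in 9 lists. In early G1, late G1 and S the H3K4me3 counted for LEFTY1 lay only beyond its end, 6021 to 7645 bp from the first base. The places of LEFTY1 among the most and least alike pairs therefore rest in part on that flank. No background over other genes was computed for these counts. The 16 lists share their cells within a fraction, so these counts are descriptions.

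The 4C table held 40 restriction sites in the 7 windows, of which INHBA had 10, NODAL 9, BMP2 7, BMP4 6, TDGF1 5, LEFTY1 3 and LEFTY2 none. All 7 genes lie on other chromosomes than the viewpoints. From GATA6, 4, 3, 6 and 3 of the 40 sites had a read from early G1 through to G2/M, and the exact Clopper-Pearson 95% intervals ran from 2.79% to 23.7%, from 1.57% to 20.4%, from 5.71% to 29.8% and from 1.57% to 20.4%. On the genes' chromosomes 7.14%, 8.09%, 9.06% and 5.05% of sites had a read, within those intervals.

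From SOX17, 7, 5, 5 and 0 of the 40 sites had a read from early G1 through to G2/M, with intervals of 7.34% to 32.8%, 4.19% to 26.8% and 4.19% to 26.8% for the first 3. For G2/M, a count of 0 of 40 sites allows a share of up to 7.5%, taken as 3 counts of the total. On the same chromosomes 7.54%, 6.38%, 8.30% and 4.35% of sites had a read, so no departure was detectable at this number of sites. The reads are PCR products without molecular identifiers, so the intervals cover counting error only. The libraries held 7491195 to 17076409 reads.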

How the data were processed

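Peak lists of 4 histone marks in 4 sorted fractions of Fucci human embryonic stem cells were used, with 1 library per group, and a 4C table of 8 libraries. Groups came from the labels, and the 4 inputs were not analysed here. Per the submitters' processing notes, Bowtie 0.12.7 was among the tools, and hg19 and mm9 among the builds, with no role stated. Not given in the sources used here are the peak caller, its settings, read filters and ChIP depth. Positions are as deposited and were read as hg19.

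The deposited signal column served as peak height, and its scaling is not given. The deposited score column is negative, more so for taller peaks. Both readings, a maximum height and a log score, were taken from the values alone. Heights are 0 on the chromosomes coded 22 to 24, where no gene of the set lies. The deposited 4C counts are whole reads per restriction site. The number of unused per-sample columns was 0.

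Peaks overlapping a gene plus 5 kb by at least 1 bp were taken, and lengths were clipped to the window. Percentiles are over peaks with a height above 0. For relative height, the tallest peak in each merged region was divided by the library median over regions listed in all 4 fractions, and 2-fold was the size called. All 7 genes were named, each by its tallest peak for each mark and fraction and its longest H3K27me3 peak. The genes and the rule were chosen with earlier results of these data known. Strands of NODAL, TDGF1 (listed as CRIPTO), BMP4 and INHBA came from RefSeq and those of LEFTY1, LEFTY2 and BMP2 from general knowledge. Lists of other pathway genes and of cell type markers were not counted, and the cell type was not checked by markers, because no hg19 annotation was used. Alternatives were other flanks, stricter lists, another overlap, the score in place of height, and other scalings. The interval steps were tested on simulated peaks. Python 3.11.15, numpy 2.4.6, pandas 2.3.3, scipy 1.17.1 and matplotlib 3.10.9 were used.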

Additional observations from a re-analysis of the deposited data

How the results depend on the processing

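A count, covered length or ratio was counted as moved when it differed from the reported one by over 1.5 times. A log2 ratio was counted as changed when its sign turned or, with deposited heights, when it differed by over 1.5-fold. A percentile was counted as moved when it lay outside the exact 95% interval of the reported one. Under the alternatives 132 percentiles moved and 51 did not. Pairs of a gene and a fraction with H3K27ac were 4 with the gene body alone and 5 with peaks of at least 500 bp, against 12. Pairs with H3K4me1 were 2 with the gene body alone, 7 with a flank of 10 kb, 2 among the stronger 50% of peaks by score and 0 with peaks of at least 500 bp, against 4. Pairs with overlapping H3K4me3 and H3K27me3 were 4 among the stronger 50%, against 10. The H3K27ac covered length of S over late G1 was 0.0646 among the stronger 50%, 0.233 with equal numbers of peaks per fraction and 0 with peaks of at least 500 bp, against 0.141. That of G2/M over S was 8.09 among the stronger 50%, against 3.79, and could not be computed with peaks of at least 500 bp. That of late G1 over early G1 was 0.416 with equal numbers and 0.339 with peaks of at least 500 bp, against 0.654. The log2 ratio of the BMP2 H3K4me3 region at the first base, late G1 over early G1, was -0.0018 with deposited heights, against 1.03. Of 48 log2 ratios at regions listed in all 4 fractions, 16 changed sign with deposited heights and 10 with differences of percentiles. Among these, S over late G1 for H3K27me3 was -0.82 at BMP2 and -0.71 at the main BMP4 region with deposited heights, against 0.20 and 0.31, and also turned negative by percentile. For H3K27ac these 2 alternatives were added after seeing the data. The counts of pairs with H3K4me3 or H3K27me3 and the covered length ratios of those marks stayed within 1.5 times under every alternative run, but 2 ratios crossed 1. H3K4me3 early G1 over G2/M was 0.947 among the stronger 50%, against 1.13, and H3K27me3 G2/M over S was 0.979 with peaks of at least 500 bp, against 1.12. The H3K4me3 covered lengths themselves were 4.9, 3.73, 5.28 and 5.18 kb among the stronger 50%, against 9.63, 8.68, 9.65 and 8.50 kb, from early G1 through to G2/M. The cause of the differences was not tested.

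With 1 library per group, no value has a replicate error, and the depth behind a missing peak is unknown. Ranks depend on the list: among peaks of at least 500 bp the percentiles of the tallest peaks shifted by a median of -29.9. For H3K27me3 they became 94.0, 79.3, 68.6 and 62.2 at NODAL, from early G1 through to G2/M. At BMP2 they became 90.8, 89.9, 79.1 and 86.5, and at BMP4 79.0, 86.3, 76.1 and 74.0.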
